A study of Mus musculus with 8 samples.

Results

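The nuclear genes of the respiratory chain and the ATP synthase were followed in the epididymal fat of mice fed conjugated linoleic acid. They were taken from the array's gene annotation by name: symbols beginning with Nduf, Uqcr, Atp5, Cox4, Cox5, Cox6, Cox7 or Cox8, and the symbols Sdha, Sdhb, Sdhc and Sdhd. Cox7a1 and Cox8b were left out of this choice and are described beside it. The rule found 85 of the 22393 probes, for 83 of the 16504 genes named on the array. It goes by symbol alone, but it was set, and Cox7a1 and Cox8b were left out of it, with earlier results of these data known. Complex I had 40 probes, complex II 4, complex III 8, complex IV 15 and complex V, the ATP synthase, 18. Ndufs6 and Atp5pb had 2 probes each. By its letters the rule also took in 4 assembly factors of complex I, Ndufaf1, Ndufaf3, Ndufaf4 and Ndufaf5, which help to build the complex without being part of it. It also took in 5 paralogues with restricted tissue expression, Cox4i2, Cox6a2, Cox6b2, Cox7b2 and Ndufa4l2. Ndufa4, counted here with complex I by its symbol, is now placed in complex IV.

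Each of 8 arrays compared 2 RNAs in 2 dyes, 1 from mice given conjugated linoleic acid (CLA), the name for several isomers of linoleic acid, and 1 from control mice given linoleic acid (LA) itself. There were 4 arrays with CLA and LA pools of day 14 of the trial and 4 with CLA and LA pools of day 5. All mice were of a polygenic obese type, all tissue was epididymal fat, and each RNA was a pool of 4 or 5 animals. For each day, CLA was labelled with Cy5 on arrays 1 and 2 and with Cy3 on arrays 3 and 4. The sources used here give neither strain, age and sex of the mice nor the doses. They also leave unsaid whether arrays share pools, so a p-value here reflects the spread among these arrays alone, which may be technical.

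All values below are log2 ratios of CLA over LA, so that 1 is a doubling and −1 a halving in CLA-fed mice. The direction is the likely one and not a stated one, and the step to log2 takes the deposited values as log10 ratios, which was inferred from their size. If the deposited values were log2 already, every log2 value here would be smaller by a factor of 3.32, with the same p-values. A probe was called at an adjusted p under 0.05 (limma, Benjamini-Hochberg over all 22393 probes). The number of arrays limits the precision. Since each value is a ratio, the level of a gene under either diet is unknown, and the labelled tissue could not be checked against absolute levels of its markers. Array 3 of day 5 stood apart: a list of testis and epididymis genes had a median of 3.49 there, with 11 of its 16 measured genes above 1, against medians of −0.33 to 0.13 on the other arrays. Single genes of the list also varied elsewhere. Array 1 of day 5 had 5 of the 16 above 1, the highest at 2.83, and array 3 of day 14 had a lowest value of −5.03.

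The respiratory chain passes electrons from NADH through complex I, and from succinate through complex II, to ubiquinone, and onward through complexes III and IV to oxygen. The proton gradient that complexes I, III and IV build is spent by complex V to make ATP, or is dissipated as heat by the uncoupling protein Ucp1 in brown and beige fat. Nearly all tissues express the same subunits, but several small subunits of cytochrome c oxidase come in a ubiquitous form and in a form typical of heart and skeletal muscle, some of which brown fat shares. In white fat these complexes serve the adipocyte's own energy supply and its lipid synthesis.

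The stretches upstream of Cox7a1, Cox8b and Cox6a1 are shown because isoforms of cytochrome c oxidase are described below. That choice was made after the values were seen. Cox6a2 had no entry among the promoters used, and Cox7a2 and Cox8a are not shown, so no subunit is seen in both forms. Each line gives the 250 bases before the start of the gene from RefSeq, build GRCm38.p6, 5′ to 3′ on the strand of the gene. Capitals mark a match to a searched motif. Cox7a1 lies at chr7:30183921-30184170 on the plus strand, Cox8b at chr7:140900447-140900696 on the minus strand and Cox6a1 at chr5:115348959-115349208 on the minus strand.
Cox7a1: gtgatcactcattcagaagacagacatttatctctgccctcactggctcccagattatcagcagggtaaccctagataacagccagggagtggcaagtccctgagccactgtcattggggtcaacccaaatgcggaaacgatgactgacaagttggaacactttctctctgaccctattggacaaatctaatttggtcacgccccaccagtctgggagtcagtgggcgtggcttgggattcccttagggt
Cox8b: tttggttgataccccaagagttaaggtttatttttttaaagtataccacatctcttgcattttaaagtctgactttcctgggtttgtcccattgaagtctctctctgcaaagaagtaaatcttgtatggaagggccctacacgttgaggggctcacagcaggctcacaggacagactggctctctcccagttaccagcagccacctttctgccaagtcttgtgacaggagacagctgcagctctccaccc
Cox6a1: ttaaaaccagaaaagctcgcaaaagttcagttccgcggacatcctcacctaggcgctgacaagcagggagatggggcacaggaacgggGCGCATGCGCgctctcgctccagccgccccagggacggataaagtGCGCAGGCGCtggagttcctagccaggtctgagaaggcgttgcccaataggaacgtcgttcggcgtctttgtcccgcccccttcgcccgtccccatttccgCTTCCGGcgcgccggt

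The letters searched on both strands were GCGCA and GCGC with 1 base between them for NRF1, CCGGAAG for GABP, AAGGTCA for estrogen-related receptors, AAGATGG for YY1, and CTA and TAG with 4 bases between them for MEF2. NRF1 and GABP are known as activators of respiratory chain genes. The last bases of the GABP letters can overlap the first of the YY1 or estrogen-related receptor letters. The promoter of Cox6a1, a ubiquitous form, held 2 NRF1 matches and 1 GABP match in these 250 bases. Those of Cox7a1 and Cox8b, muscle forms of other subunits, held none of the 5 motifs. These genes were picked by hand, so they do not compare ubiquitous with muscle forms in general. RefSeq promoters were matched for 69 of the 83 genes. NRF1 letters stood in 13 of the 69 (18.8%), against 6.33% of the 13200 promoters of genes on the array and 3.86% of all 27025 promoters. GABP letters stood in 11 (15.9%), against 10.4% of array genes and 7.05% of all promoters. Estrogen-related receptor letters stood in 5 (7.25%), against 3.19% and 4.05%, MEF2 letters in 1 (1.45%), against 3.06% and 3.23%, and YY1 letters in 0, against 4.2% and 4.53%. A match is a run of letters and not a known binding site.

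At day 14, with values read as deposited, most probes of the rule had means near 0, as did most probes of the array. The median size of the mean was 0.10 over the 85 probes, against 0.11 over all probes. Mean log2 ratios of 84 of the 85 probes lay between −0.39 for Cox8a and 0.22 for Uqcrq, that is from 1.31-fold lower to 1.16-fold higher in CLA-fed mice. The exception was Cox6a2, the heart and muscle form of subunit 6a of cytochrome c oxidase, at 0.73. For 74 of the 85 probes (87.1%, against 73.5% of all probes) the 95% interval of the day 14 mean lay wholly within a 1.5-fold change in either direction. The 11 whose interval reached past it included Cox6b2, Cox7b2 and Ndufaf3, whose spread came from day 5 array 3. More of the members were below 0 than above: 58 of 85 (68.2%), against 47.8% of all probes, with a median of −0.06, against 0.01 for all probes. Without day 14 array 3 the median was −0.0049 and the count 43. With the sign of arrays 3 and 4 turned, 36 were below 0 and the median was 0.11.

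No member was called at day 14 in limma over all 8 arrays, nor was any of the 22393 probes (0%). The smallest adjusted p among the members was 0.269, for Cox6a2. At an unadjusted p under 0.05, 2 members were lower in CLA (Ndufa7 and Atp5a1, 2.35%, against 5.22% of all probes). Another 2 were higher (Cox6a2 and Uqcr10, 2.35%, against 3.95% of all probes). Leaving out 1 array at a time gave 0 to 8 lower and 1 to 3 higher. The 8 came without day 5 array 3 (9.41%, against 8.19% of all probes) and the 0 without day 14 array 3 (against 3.28%). Without array 1, 2 or 4 of either day, 1 to 5 were lower. Fitted without the day 5 arrays, 96 probes were called (0.429%), and Cox6a2 was the 1 member among them (1.18%). In that fit 9 members were lower at an unadjusted p under 0.05 (10.6%, against 10.4% of all probes) and 2 were higher (2.35%, against 7.40%). All 4 day 14 arrays were above 0 for 1 member, Cox6a2 (1.18%, against 6.24% of all probes). They were all below 0 for 5 members (5.88%, against 6.51%), namely Ndufa7, Ndufb3, Ndufs4, Cox8a and Atp5h.

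**Figure D1:**
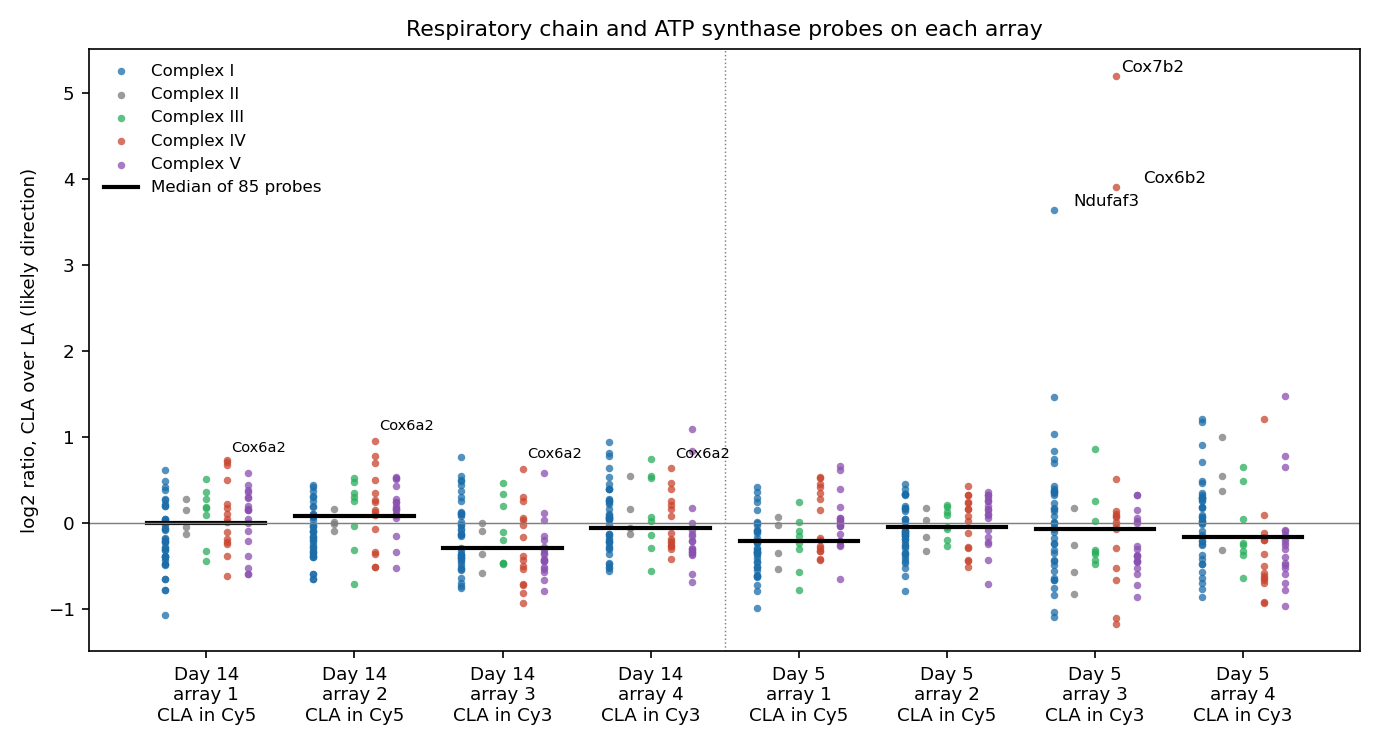
Log2 ratio of CLA over LA (vertical axis) of each of the 85 probes on each array, day 14 at left and day 5 at right, with points coloured by complex and a black line at the median of the probes. The medians lie between −0.30 and 0.07, Cox6a2 is above 0 on all 4 day 14 arrays, and Cox7b2, Cox6b2 and Ndufaf3 reach 3.63 to 5.19 on array 3 of day 5.

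Cox6a2 had log2 ratios of 0.70, 0.95, 0.63 and 0.63 on day 14 arrays 1 to 4, against 0.52, 0.15, −0.03 and −0.64 on day 5 arrays 1 to 4. The 4 day 14 values lay above all 4 day 5 values, and both dye orientations gave a positive ratio at day 14. The day 14 mean was 0.73 ± 0.13 (SE; 95% interval 0.42 to 1.04), or 1.66-fold. By limma its adjusted p was 0.269 with all 8 arrays, 0.0478 with the day 14 arrays alone and 0.0283 with arrays weighted by their spread. The weighted fit called 393 probes (1.76%), Cox6a2 the 1 member among them (1.18%). Leaving out any 1 day 14 array in the fit of day 14 alone ended the call, with values of 0.67 to 0.79. With the sign of arrays 3 and 4 turned its mean would be 0.10, with an adjusted p of 0.797.

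The muscle forms of the other 2 subunits also had positive ratios on every day 14 array. Cox7a1, muscle subunit 7a, had 0.23, 0.25, 0.92 and 1.02 on the day 14 arrays, against 0.11, 0.00, −0.25 and −0.16 on the day 5 arrays. Its mean was 0.61 ± 0.15 (SE), 1.52-fold, with an adjusted p in limma of 0.337 with all 8 arrays, 0.0536 with the day 14 arrays alone and 0.0403 with weighted arrays. Cox8b, muscle subunit 8, had 0.62, 0.59, 1.11 and 1.15 on the day 14 arrays, against −0.68, 0.27, −0.11 and −0.47 on the day 5 arrays. Its mean was 0.87 ± 0.17 (SE), 1.82-fold, with an adjusted p in limma of 0.276 with all 8 arrays, 0.0378 with the day 14 arrays alone and 0.0395 with weighted arrays. Both genes stand outside the rule and were singled out with earlier results of these data known.

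None of the ubiquitous partners had a positive day 14 mean. Cox6a1 had 0.50, 0.14, −0.51 and −0.24 on the day 14 arrays, against −0.27, 0.16, −0.66 and −0.59 on the day 5 arrays. Cox7a2 had 0.01, 0.26, −0.54 and −0.27 on the day 14 arrays, against −0.20, 0.07, 0.51 and −0.51 on the day 5 arrays. Cox8a had −0.11, −0.34, −0.93 and −0.19 on the day 14 arrays, against −0.33, 0.02, −1.11 and −0.12 on the day 5 arrays. Cox6a1 and Cox7a2 changed sign with the dyes at day 14, and Cox8a was below 0 on every day 14 array. Taking the muscle form minus its ubiquitous partner on each array, Cox6a2 exceeded Cox6a1 at day 14 by 0.76 ± 0.39 (SD, n = 4) and on 4 of 4 arrays. Cox7a1 exceeded Cox7a2 by 0.74 ± 0.74 on 3 of 4 arrays, and Cox8b exceeded Cox8a by 1.26 ± 0.58 on 4 of 4. At day 5 these differences were 0.34 ± 0.43, −0.04 ± 0.51 and 0.14 ± 0.64, each positive on 2 of 4 arrays. The pairs were formed after the values were seen, so these differences are a description without a test.

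**Figure D2:**
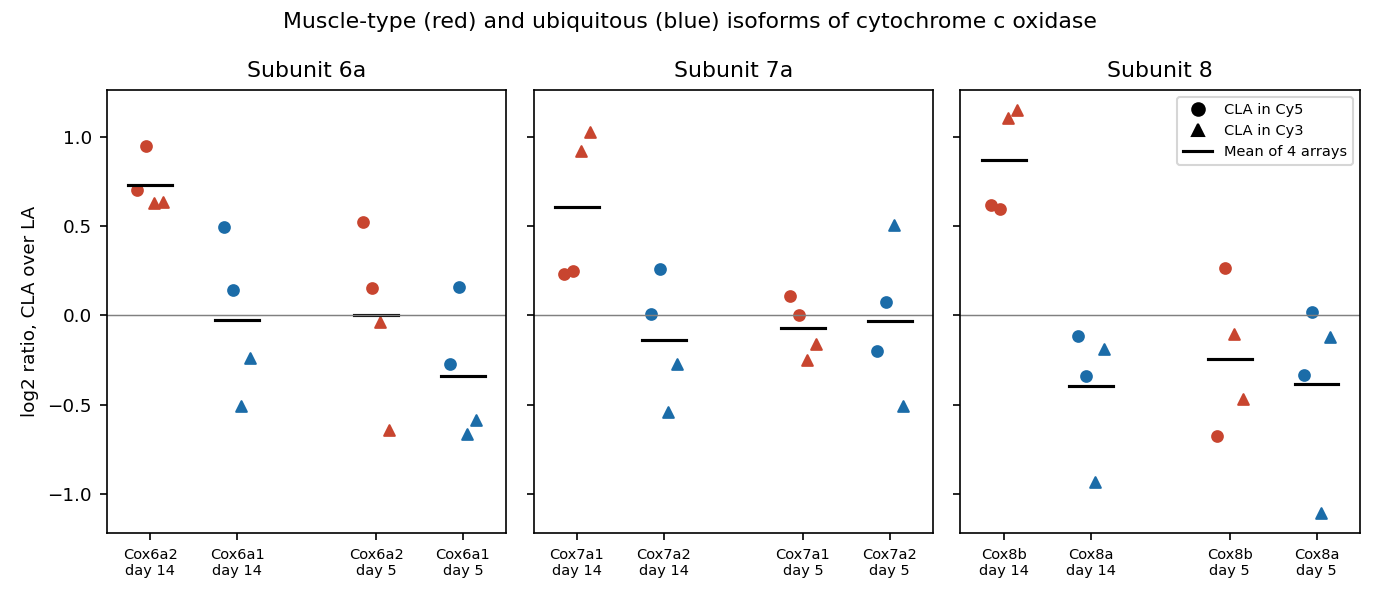
Log2 ratio of CLA over LA (vertical axis) on each array for the muscle (red) and ubiquitous (blue) forms of subunits 6a, 7a and 8, day 14 left of day 5; circles are arrays with CLA in Cy5, triangles arrays with CLA in Cy3, and lines are means of 4 arrays. The red points of day 14 are all above 0 (means 0.73, 0.61 and 0.87), whereas those of day 5 lie on both sides of 0.

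Genes of skeletal and cardiac muscle showed no common direction. The list of 20 such genes, on 29 probes, had a day 14 median of 0.02, with array medians of −0.12, −0.05, 0.07 and 0.11. Its 3 genes with the smallest p had day 14 means of −0.40 (Eno3), −0.58 (Acta1, skeletal muscle actin) and 0.44 (Des). Eno3 and Acta1 were below 0 on all 4 day 14 arrays, and Des was above 0 on all 4. Ckm, muscle creatine kinase, had a mean of 0.03, while Ckmt2, its mitochondrial relative, was at 0.69. Ucp1, the uncoupling protein of brown and beige fat, had 3.21, 3.66, 3.71 and 3.47 on the day 14 arrays, against 1.95, −0.31, 1.97 and −0.40 on the day 5 arrays. The list of 12 brown and beige genes holds Ucp1, Cox7a1 and Cox8b themselves. Its other 9 genes had a day 14 median of 0.06, with 5 above 0 and array medians of −0.25 to 0.53. Among the 5 were Elovl3 at 0.82 ± 0.14 and Fabp3 at 1.31 ± 0.36 (SE), each above 0 on all 4 day 14 arrays. Their limma adjusted p was 0.223 and 0.369 with all 8 arrays, and 0.0283 and 0.0357 with weighted arrays. The weighted fit called 5 of the 12 genes, Ucp1, Cox7a1, Cox8b, Elovl3 and Fabp3, against 1.76% of all probes. Turned, Elovl3 would be at −0.06 and Fabp3 at −0.27. With arrays 3 and 4 turned, the day 14 means would be −0.08 for Ucp1, −0.37 for Cox7a1 and −0.26 for Cox8b, and the medians −0.05 for the muscle list and 0.17 for the other 9 brown and beige genes.

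Marker lists of the cell types of fat were read beside the members. At day 14 the adipocyte list (18 genes on 19 probes) had a median of −0.77, with 16 probes below 0 and array medians of −0.30, −0.53, −1.10 and −0.66. The macrophage list had a median of 0.63, with 17 of 18 genes above 0 and array medians of 1.39, 0.51, 0.65 and 0.11. Endothelial and mesothelial lists had medians of −0.34 and −0.38. With arrays 3 and 4 turned, the medians would be 0.43 for the adipocyte list, with 5 of 19 probes below 0, 0.23 for the macrophage, −0.205 for the endothelial and 0.05 for the mesothelial list. The members' own medians on the same 4 arrays were 0.00, 0.07, −0.30 and −0.06. Array 3 had both the lowest member median and the lowest adipocyte median of day 14. At day 5 the 2 lists did not go together in this way. The lowest adipocyte median, −1.40 on array 3, stood beside a member median of −0.08. The highest, 0.90 on array 4, stood beside −0.16, and the lowest member median, −0.22, was on array 1. In whole tissue, fewer cells of a type and less RNA per cell cannot be told apart, and the part of cell makeup in the members' values was not tested.

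Complex I, the NADH dehydrogenase, had 31 of 40 probes below 0 at day 14, with a median of −0.12, against 28 of 40 and a median of −0.08 at day 5. With arrays 3 and 4 turned, 21 of 40 would be below 0 at day 14, with a median of −0.01, and 25 of 40 at day 5, with a median of −0.12. The 6 measured subunits of its catalytic core, which include those that carry the flavin and the iron-sulphur clusters, had a day 14 median of 0.01. Their day 14 means ran from −0.11 (Ndufs3) to 0.09 (Ndufs8), with no core subunit at an unadjusted p under 0.05. The lowest complex I probes, Ndufb3 and Ndufa7, stand for accessory subunits. Ndufa7 had −0.29, −0.39, −0.42 and −0.19 on the day 14 arrays, against −0.29, −0.05, 0.08 and 0.28 on the day 5 arrays. It was below 0 on every day 14 array, and its mean of −0.32 ± 0.10 (SE) had an adjusted p of 0.392 in limma. Ndufb3, a membrane-arm accessory subunit, had −0.19, −0.34, −0.53 and −0.48 on the day 14 arrays, against −0.56, 0.04, −1.10 and −0.00 on the day 5 arrays. Its means were −0.38 ± 0.18 at day 14 and −0.41 ± 0.18 at day 5 (SE), and the day 5 mean was −0.18 without array 3.

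Other accessory subunits had small day 14 means that split by dye. Ndufb2 had 0.04, 0.03, −0.54 and −0.30 on the day 14 arrays, against −0.10, 0.16, −0.43 and −0.48 on the day 5 arrays. Ndufc2 had 0.02, 0.26, −0.55 and −0.53 on the day 14 arrays, against 0.14, 0.16, −0.56 and −0.86 on the day 5 arrays. In both, arrays 1 and 2 were mostly near or above 0 and arrays 3 and 4 below it on either day. The highest complex I probe of day 14, Ndufa10, had −0.48, −0.17, 0.54 and 0.94, with a mean of 0.21 ± 0.18 (SE), and −0.30, −0.44, −0.05 and 1.17 at day 5. Both Ndufs6 probes gave day 14 means of −0.13 and −0.12 and day 5 means of 0.06 and −0.03. Ndufa4l2, a paralogue of Ndufa4 that is induced by hypoxia in other tissues, had means of −0.16 ± 0.13 at day 14 and −0.21 ± 0.13 at day 5 (SE). Of the 4 assembly factors, 3 were below 0 at day 14, and none had an unadjusted p under 0.05.

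Complex II, succinate dehydrogenase, which also belongs to the tricarboxylic acid cycle, had 4 probes with day 14 means of −0.10 to 0.05. Sdha, the flavin subunit, had 0.28, −0.01, −0.58 and −0.06 on the day 14 arrays, against −0.03, 0.03, −0.83 and 0.37 on the day 5 arrays. Sdhb, the iron-sulphur subunit, had −0.14, −0.10, −0.10 and 0.54 on the day 14 arrays, against −0.54, −0.16, 0.17 and 0.99 on the day 5 arrays. Neither had a common direction on either day. Sdhd, a membrane anchor, was the lowest of the 4 at day 5, with a mean of −0.16 ± 0.09 (SE) and an unadjusted p of 0.0967.

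Complex III, the cytochrome bc1 complex, had a median of 0.06 at day 14, with 4 of 8 probes below 0, and of −0.13 at day 5, with 7 of 8 below 0. With arrays 3 and 4 turned, the medians would be 0.22 at day 14 and 0.08 at day 5, with 3 of 8 below 0 on each day. Uqcrq, a small subunit, had 0.18, −0.04, 0.19 and 0.54 on the day 14 arrays, against −0.31, −0.08, 0.25 and 0.05 on the day 5 arrays. Uqcr10, another small subunit, had 0.50, 0.47, −0.21 and 0.06 on the day 14 arrays, against 0.01, 0.20, −0.32 and −0.24 on the day 5 arrays. Their day 14 means were 0.22 ± 0.10 and 0.21 ± 0.09 (SE), with limma adjusted p of 0.551 and 0.521. Uqcrfs1, the Rieske iron-sulphur protein, was below 0 on all 4 day 5 arrays, with −0.23, −0.05, −0.36 and −0.38. At day 14 Uqcrfs1 was positive where CLA carried Cy5, 0.36 and 0.34, and negative where it carried Cy3, −0.48 and −0.57. Uqcrc1, a core protein, did the reverse, with −0.33, −0.32, 0.46 and 0.74. At day 5 the mean of Uqcr11 was the lowest of the complex, −0.26 ± 0.17 (SE), and it was −0.02 without array 3.

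Complex IV, cytochrome c oxidase, apart from Cox6a2, had day 14 means of −0.39 to 0.12 and no probe with an unadjusted p under 0.05. Cox4i1, the ubiquitous regulatory subunit, and Cox4i2, its lung-type paralogue, both had day 14 means of −0.08. Cox5a had 0.67, 0.69, −0.73 and −0.43 on the day 14 arrays, against 0.41, 0.32, 0.08 and −0.94 on the day 5 arrays. Cox7b had 0.73, 0.78, −0.71 and −0.30 on the day 14 arrays, against 0.34, 0.43, −1.18 and −0.67 on the day 5 arrays. In both the sign at day 14 went with the dyes, with day 14 means of 0.05 and 0.12. The testis-type paralogues Cox6b2 and Cox7b2 had day 14 means of 0.01 ± 0.66 and −0.12 ± 0.78 (SE). Their standard errors, against a median of 0.11 over all members, took in the spread of day 5 array 3.

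Complex V, the ATP synthase, had 13 of 18 probes below 0 at day 14, with a median of −0.06, against 14 of 18 and a median of −0.12 at day 5. The lean is to the other side with arrays 3 and 4 turned, when 5 of 18 would be below 0 at day 14, with a median of 0.23, and 4 of 18 at day 5, with a median of 0.19. Atp5a1, the alpha subunit of the catalytic head, had 0.37, 0.24, −0.79 and −0.69 on the day 14 arrays, against 0.06, 0.32, −0.87 and −0.70 on the day 5 arrays. Its means were −0.21 ± 0.08 at day 14 and −0.30 ± 0.08 at day 5 (SE), with limma adjusted p of 0.497 and 0.295. Atp5b, the beta subunit of the same head, had −0.60, −0.53, 0.57 and 1.08 on the day 14 arrays, against −0.66, −0.71, 0.32 and 1.47 on the day 5 arrays. The alpha and beta subunits, which stand in equal number in the enzyme, thus had opposite signs on every array. Atp5j, a stalk subunit, had 0.00, 0.10, −0.52 and −0.60 on the day 14 arrays, against −0.28, 0.25, −0.01 and −0.49 on the day 5 arrays. Atp5h, also of the stalk, was below 0 on all 4 day 14 arrays, at −0.21, −0.16, −0.20 and −0.01. The 2 probes of Atp5pb, another stalk subunit, had day 14 means of 0.02 and −0.03 but opposite signs on arrays 1, 3 and 4 of that day.

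**Figure D3:**
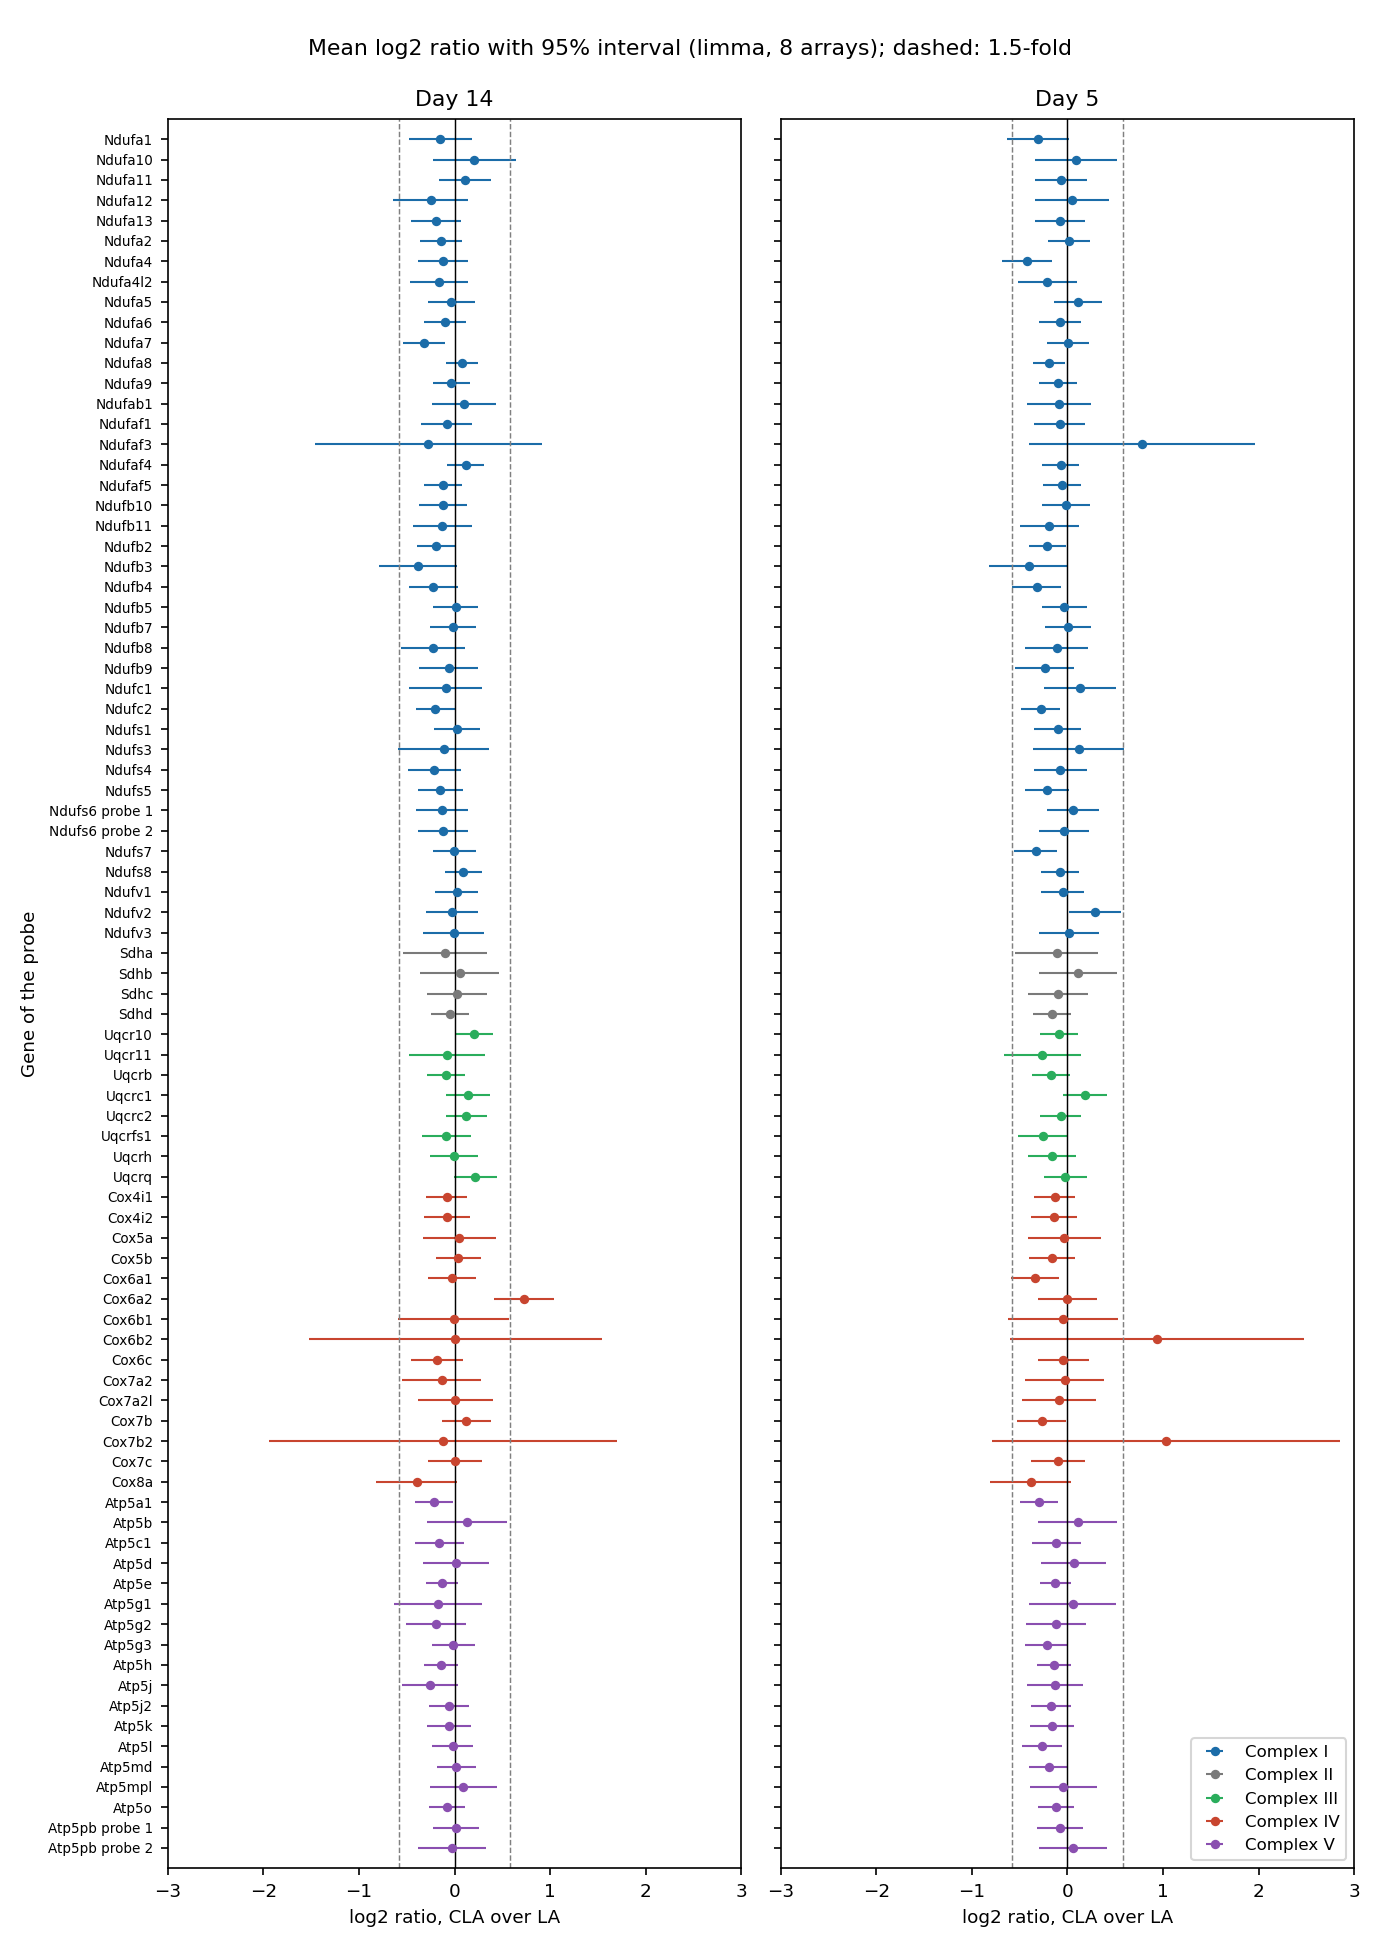
Mean log2 ratio of CLA over LA (horizontal axis) of each probe with its 95% interval from limma over 8 arrays, day 14 in the left panel and day 5 in the right, ordered by complex; dashed lines mark a 1.5-fold change in either direction. Cox6a2 at day 14 is the point farthest above 0 in the left panel (0.73), and 74 of 85 intervals in each panel lie within the dashed lines.

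For most members the split between dye orientations was wider than the distance of the mean from 0. The mean of the arrays with CLA in Cy5 minus that of the arrays with CLA in Cy3 had a median size of 0.52 at day 14 over the members, against 0.42 over all probes, and of 0.49 at day 5. Its sign was the same on both days for 76 of 85 probes. At day 14 the orientation means were of opposite sign for 69 of 85 probes, both above 0 for 4 and both below 0 for 12. The shares over all probes were not worked out for these sign counts, so they are not shown to be particular to the members. Ndufv2, an iron-sulphur subunit of the complex I core, had the widest split of day 14, with −1.07, −0.60, 0.76 and 0.80 on the day 14 arrays, against −0.73, −0.80, 1.47 and 1.21 on the day 5 arrays. Over the 85 probes, arrays of the same orientation correlated with a median r of 0.69 (12 pairs, 0.11 to 0.86), and arrays of opposite orientation with one of −0.59 (16 pairs, −0.77 to −0.12). The points of such a correlation share probes, dyes and hybridisation, and over all 22393 probes the medians were 0.89 and −0.87.

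This bears on the direction. If arrays 3 and 4 had been deposited unturned, the difference between orientations would be the diet effect. With those arrays turned, limma called 17 of 85 members at day 14, against 16.8% of all probes, 10 of them higher and 7 lower in CLA. At day 5 it called 15 of 85, against 16.8% of all probes, 6 higher and 9 lower. The turned day 14 means ran from −0.81 for Ndufv2 and −0.70 for Atp5b to 0.63 for both Cox5a and Cox7b. Atp5a1 was at 0.52 under that reading, of opposite sign to Atp5b of the same complex.

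**Figure D4:**
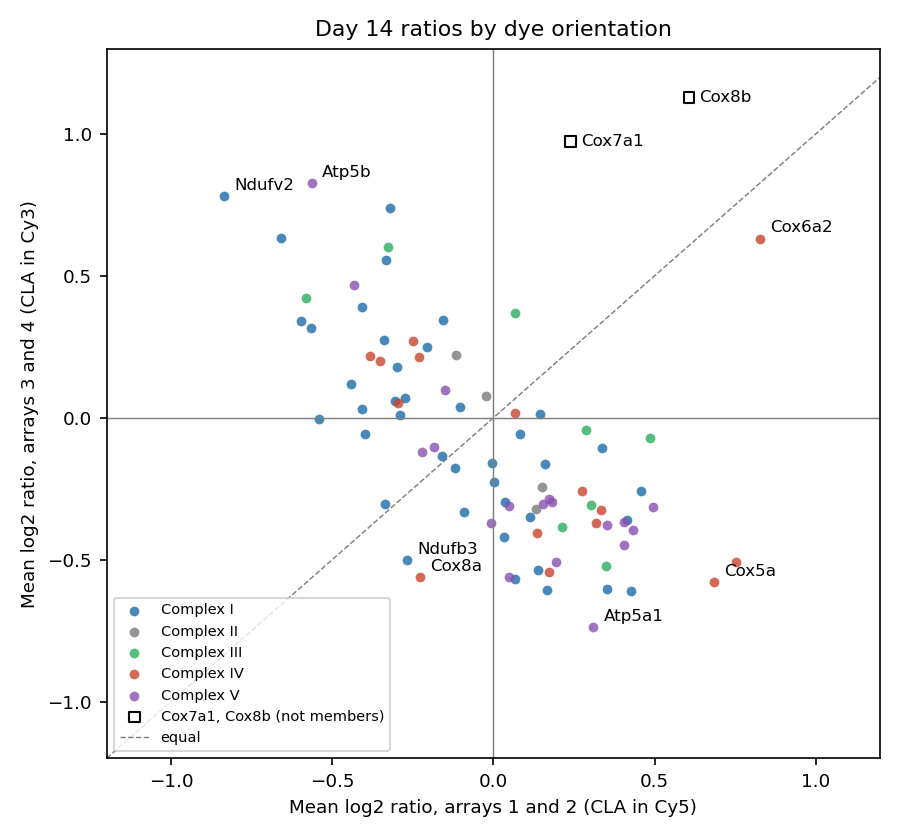
Day 14 log2 ratio of CLA over LA for each of the 85 probes, averaged over the arrays with CLA in Cy5 (horizontal axis) and over those with CLA in Cy3 (vertical axis), coloured by complex, with Cox7a1 and Cox8b as open squares. For 69 probes the axes have opposite signs, and Cox6a2 is 1 of 4 members above 0 on both.

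At day 5 no member was called either (0%, as for all probes), with a smallest adjusted p of 0.295 in limma. At an unadjusted p under 0.05, 10 members were lower in CLA (11.8%, against 9.00% of all probes) and 1, Ndufv2, was higher (1.18%, against 4.05%). Below 0 were 64 of 85 probes (75.3%, against 49.6% of all probes), with a median of −0.09, against 0.00 for all probes. Turning arrays 3 and 4 would put 41 below 0, with a median of 0.034. Without array 3, the counts at an unadjusted p under 0.05 were 14 lower (16.5%, against 7.34% of all probes) and 1 higher (1.18%, against 6.44%). The median was then −0.11 and 67 probes were below 0. All 4 day 5 arrays were below 0 for 3 members (3.53%, against 3.18% of all probes), Ndufa8, Ndufs5 and Uqcrfs1, and above 0 for 0, against 2.19% of all probes. The array medians of the members were −0.22, −0.05, −0.08 and −0.16.

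The members with the smallest p at day 5 came from complexes I, IV and V. Ndufa4 had −0.12 as its mean at day 14 and −0.43 ± 0.11 (SE) at day 5, from day 5 arrays of −0.22, 0.33, −1.04 and −0.77. Ndufs7, an iron-sulphur subunit of the complex I core, had 0.22, 0.10, −0.38 and 0.05 on the day 14 arrays, against −0.09, 0.01, −0.67 and −0.57 on the day 5 arrays. Cox6a1 had a day 5 mean of −0.34 ± 0.11 (SE). The low values of these genes lay on arrays 3 and 4, where CLA carried Cy3. Ndufa8, a complex I subunit on the intermembrane side, had 0.19, 0.10, −0.03 and 0.05 on the day 14 arrays, against −0.22, −0.10, −0.24 and −0.21 on the day 5 arrays. Ndufb4 and Atp5l had day 5 means of −0.32 and −0.27.

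Array 3 of day 5 carried 3 members far above all others. Cox7b2, a testis-type form of subunit 7b, was at 5.19 there, Cox6b2, the sperm form of subunit 6b, at 3.90 and Ndufaf3, an assembly factor of complex I, at 3.63. On the other 7 arrays these 3 lay between −0.92 and 0.45, and the next member on array 3 was Ndufv2 at 1.47. The testis and epididymis list had its highest value, 6.78, on the same array. Without array 3 the day 5 means were −0.32 for Cox7b2, −0.19 for Cox6b2 and −0.09 for Ndufaf3, against 1.03, 0.94 and 0.78 with it. The adipocyte markers were unsteady at day 5, with array medians of −0.97, 0.11, −1.40 and 0.90.

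For day 14 minus day 5, no member was called (0%, as for all probes), and the smallest adjusted p was 0.914 in limma. At an unadjusted p under 0.05, 5 members had a higher ratio at day 14 (5.88%, against 2.71% of all probes), namely Cox6a2, Ndufa8, Cox7b, Uqcr10 and Ndufs7. Ndufa7 was the 1 member with a lower ratio (1.18%, against 1.45%). Without day 5 array 3, 3 were higher, Cox6a2, Ndufa8 and Cox5a (3.53%, against 2.94% of all probes), and 0 lower (against 2.86%). Leaving out each of the 8 arrays in turn gave 1 to 6 higher, Cox6a2 each time, and 0 or 1 lower. The difference was 0.73 ± 0.19 (SE) for Cox6a2, with an unadjusted p of 0.00535, 0.39 for Cox7b, 0.33 for Ndufs7, 0.29 for Uqcr10, 0.27 for Ndufa8 and −0.33 for Ndufa7. The median over the members was 0.05, with 51 of 85 above 0, against 0.01 over all probes. Below 0 on both days were 44 members, and above 0 on both days 7, counts for which the share over all probes was not worked out.

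Other genes of mitochondrial energy metabolism, from lists drawn up from general knowledge, had medians near 0 at day 14 as well, and none was called in limma over all 8 arrays. With weighted arrays, 3 were called, Hccs (adjusted p 0.0447), Slc25a20 (0.0459) and Etfdh (0.0499), against 1.76% of all probes. Cytochrome c and electron transfer genes (12 of 13 measured, on 13 probes) had a median of 0.01, with 5 probes below 0. Etfdh, which passes electrons from fatty acid oxidation to ubiquinone, had the smallest p of that list, with 0.34 ± 0.10 at day 14 and −0.28 ± 0.10 at day 5 (SE). The assembly factors of the other complexes (31 of 34, on 33 probes) had a median of −0.04, with 18 below 0. Hccs, which attaches heme to cytochromes c, had the smallest p of these at day 14, with 0.37 ± 0.10 (SE). Regulators of mitochondrial biogenesis (22 of 22) had a median of 0.05, with 9 below 0. Ppargc1a, a coactivator of respiratory genes in brown fat and muscle, had means of 0.06 ± 0.09 at day 14 and −0.29 ± 0.09 at day 5 (SE).

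The tricarboxylic acid cycle (13 of 14) had a median of 0.02 at day 14, with 6 below 0. Its first enzyme, citrate synthase (Cs), had 0.46, 0.16, 0.11 and 0.53 on the day 14 arrays, against −0.13, −0.14, −0.28 and 0.36 on the day 5 arrays. It was above 0 on every day 14 array, with a mean of 0.32 ± 0.13 (SE) and a limma adjusted p of 0.515. Mitochondrial carriers and channels (22 of 22, on 24 probes) had a median of −0.03, with 15 below 0. Slc25a20, the carnitine carrier that brings fatty acids in for oxidation, had a mean of 0.58 ± 0.17 (SE) at day 14 and the smallest p of the list, adjusted p 0.373 in limma. At day 5 the medians of these 5 lists were −0.18, −0.12, −0.07, −0.09 and −0.10, in the order given, beside −0.09 for the members and 0.00 for all probes. At an unadjusted p under 0.05, the cytochrome c list had 1 probe higher and 1 lower at day 14, the assembly factors 2 and 2, the regulators 2 and 1, the cycle 1 and 0, and the carriers 2 and 2. The day 14 medians with arrays 3 and 4 turned would be −0.075 for the cytochrome c list, −0.0021 for the assembly factors, 0.13 for the regulators, −0.0069 for the cycle and 0.06 for the carriers.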

How the data were processed

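Deposited values of 22393 probes on 8 arrays of 2 channels were used. The authors deposited 1 value per probe and array, taken here as a log10 ratio of the channels from its size alone, since the sources used here do not state background treatment, normalization or numerator. Values were multiplied by 3.32 to give log2. As deposited the array medians were −0.0176 to 0.0109, and no further centring was done. Values were read as deposited, as CLA over LA with arrays 3 and 4 already turned, a direction carried over from earlier results of these data. Read so, Ucp1 was above 0 on all 4 day 14 arrays, but arrays of opposite dye orientation correlated at a median r of −0.87 over all probes, so the direction is not settled and turned values are given too. In R 4.3.3, lmFit and eBayes of limma 3.58.1 were run on all probes and 8 arrays, with day means and 1 dye term as coefficients (residual df 5, prior df 2.589). Arrays were grouped by the labels' day and dyes. No intensities were used.

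The members and gene lists were chosen with earlier results of these data known. Named were the 10 member probes with the smallest p for each day and for the difference, the highest and lowest of each complex and day, paralogues, genes with several probes, and up to 3 genes per list and day. Genes outside these rules (Cox7a1, Cox8b, Cox7a2, Ckm, Ckmt2, Fabp3 and members quoted for their dye pattern or for all arrays lying on 1 side of 0) were picked after their values were seen. All probes were tested: 18218 with 1 gene symbol, 16 with several and 4159 unnamed. The 83 member genes matched a RefSeq gene table by Entrez number with 0 symbols changed. Array numbers 1 to 4 recur on each day. Arrays of 1 number on different days correlated at 0.37 to 0.64 over deviations from the day means, and at −0.65 to 0.14 once the dye term was removed, so the numbers share dyes and were not taken as pairs. Fits of each day alone, of weighted, centred, scaled and turned arrays, without the dye term and without each array were alternatives. The fit was tested on simulated data with a capped spread on each array, so that test does not cover the wider spread of day 5 array 3. All sample columns were used.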

Additional observations from a re-analysis of the deposited data

Results flagged for a closer look

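Among 170 groups of 4 arrays (each of the 85 probes at each day), 7 had 1 array far from the other 3, measured by the gap to the nearest array against the whole range. Chance alone gives about 1 such group in 20, and 7 of 170 is a smaller share than that. The groups are listed for their values and are no excess over chance. On day 5 array 3, Cox7b2 was at 5.19, with the other 3 day 5 arrays between −0.52 and −0.19, and Ndufaf3 at 3.63, with the others between −0.36 and 0.07. The other 5 groups lay on arrays numbered 4. At day 14, Sdhb was at 0.54, with the others between −0.14 and −0.10, and Ndufb8 at 0.27, with the others between −0.41 and −0.38. At day 5, Cox6b1, a ubiquitous subunit of cytochrome c oxidase, was at 1.21, with the others between −0.53 and −0.43. Sdhc, a membrane anchor of complex II, was at 0.54, with the others between −0.35 and −0.26. Ndufc1 was at −0.64 on that array, with the others between 0.36 and 0.44. The cause of these values was not tested.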

How the results depend on the processing

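With arrays 3 and 4 turned in sign, members called were 17 at day 14 and 15 at day 5, members below 0 were 36 at day 14 and 41 at day 5, and the medians were 0.11 at day 14 and 0.034 at day 5. Members called at day 14 were 1 (Cox6a2) with each day fitted alone, with array weights, and with the day 14 arrays alone after averaging the probes of a gene. The Cox6a2 log2 ratio at day 14 was 0.73 (adjusted p 0.0478), 0.72 (0.0283) and 0.73 (0.0298) in these 3 limma fits, and its adjusted p was 0.54 for day 14 alone without the dye term. The last setting, the averaging within day 14 and the brown and beige list without Ucp1, Cox7a1 and Cox8b were chosen after seeing the data. Without each of the 8 arrays in turn, no member was called, members below 0 were 43 to 64 at day 14 and 52 to 67 at day 5, the medians were −0.095 to −0.0049 at day 14 and −0.12 to −0.06 at day 5, and Cox6a2 was 0.68 to 0.83 (adjusted p 0.128 to 0.782). The lowest count and the median nearest 0 at day 14 came without day 14 array 3, and at day 5 without day 5 array 1. With a replicate block for the array number in place of the dye term, 0 members were called in any comparison and Cox6a2 kept its day 14 value of 0.73 (adjusted p 0.424). It changed no call. Centring, scaling, a robust prior, a dye term per day, gene means and leaving out assembly factors and paralogues also gave 0 members called. Of 1242 values of named members under alternatives other than turning, 8 moved by more than the spread between arrays, and of 69 under turning, 30. The cause of these shifts was not tested. Intensities were not used here, so what signal over background limits could not be examined.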
